A study of Mus musculus with 13 samples.

Results

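The cytosolic ribosomal protein genes were taken from bulk RNA-seq of mouse CD4+ T cells. Members were the entries of the deposited count table whose symbol begins with Rpl or Rps and a digit, together with Rpsa, Rplp0, Rplp1 and Rplp2, leaving out named pseudogenes (symbols with -ps) and the ribosomal S6 kinases. The rule matched 100 of 55774 entries. Of these, 6 repeated another member's values exactly and were dropped, which left 94 genes, of which 92 passed the filter on low counts. They comprised 43 proteins of the large subunit, 3 of the stalk and 31 of the small subunit, all 77 of which were tested. The other members were 8 paralogs (6 tested), 8 retrocopies, meaning gene copies made by reverse transcription of an mRNA, and Rps19bp1, which binds a ribosomal protein without being one.

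The T cells were primary naive CD4+ cells from the spleens of female BDC2.5 mice, which carry the transgene Tg(TcraBDC2.5,TcrbBDC2.5)1Doi on NOD/ShiLtJ and whose T cell receptor recognises an islet antigen. In 5 libraries the cells had been co-cultured for 96 h with islet macrophages of NOD mice that received a single low dose of streptozotocin (STZ), a toxin of beta cells. In 4 libraries the macrophages came from NOD mice given control buffer, and 4 libraries held T cells alone. The donors were injected at 4 weeks of age, and their islets were taken 10 days later, at 5.5 weeks. T cells were recovered from co-culture by a sort for living cells positive for CD45, Thy1.2 and CD4. All 3 groups carried the same receptor transgene, and whether the cells alone were also cultured is not stated in the labels. The labels give a batch: STZ replicates 2, 3 and 4 and control replicate 3 were of day 2, and all other libraries, including every one of cells alone, were of day 1.

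A cytosolic ribosome joins a small subunit, which reads the mRNA, to a large subunit, which forms peptide bonds, and each subunit is built from ribosomal RNA and many different proteins. Naive T cells translate little, and T cells that leave quiescence enlarge and make more ribosomes. Ribosomal protein mRNAs usually begin with a C followed by a run of pyrimidines, the TOP motif, through which mTORC1 controls their translation. Since translation of these mRNAs is regulated apart from their amount, an RNA level is not a measure of ribosome content.

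The libraries held 33398984 to 58827796 estimated counts in STZ co-cultures, 30600523 to 61267763 in control co-cultures and 17312119 to 39775134 in cells alone. The members took up 1.29% to 2.03% of the counts in STZ co-cultures, 1.48% to 2.04% in control co-cultures and 1.00% to 1.44% in cells alone. The named pseudogenes of these genes, which are not members, took up another 1.22% ± 0.219 (SD, n = 5) in STZ co-cultures, 1.30% ± 0.170 (SD, n = 4) in control co-cultures and 0.857% ± 0.135 (SD, n = 4) in cells alone. Of the member values, 91.4% were not whole numbers, against 11.0% of all values, and members with none of their 100-base stretches in another gene, such as Rps27l and Rps3, had such values too, in 12 and 13 libraries. How the authors' counting assigned these reads is not stated. Levels below are CPM, estimated counts scaled by the TMM method to a common library size. On the first principal component of the cells-alone libraries, computed without the members and onto which all libraries were projected, STZ replicates 1 and 5 (50.3 and 37.1) and cells-alone replicate 2 (64.4) lay at one end and control replicate 3 (-86.4) at the other. Summed CPM of 8 T cell markers was 6919 to 9381 in STZ co-cultures, 9003 to 15430 in control co-cultures and 5729 to 11210 in cells alone. Summed CPM of 20 macrophage markers was 206 to 406 in STZ co-cultures, 291 to 599 in control co-cultures and 163 to 372 in cells alone, and 8 B cell markers summed to 1.20 to 2.58, 1.02 to 2.18 and 6.14 to 22.1 CPM in the same order. Islet endocrine markers, 8 in number, summed to 0.687 to 154, 0.0662 to 1.70 and 0 to 0.585 CPM in that order. In all cells-alone libraries 7 endocrine markers, 1 macrophage marker and no T or B cell marker were at 0. The mitochondrially encoded share was 1.16% to 1.73% in STZ co-cultures, 0.773% to 1.73% in control co-cultures and 1.45% to 2.50% in cells alone. The part of these differences in the results below was not tested.

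Most ribosomal protein genes were higher in T cells co-cultured with control macrophages than in T cells alone. The edgeR quasi-likelihood test called 47 of 92 members higher (51.1%) and 5 lower (5.43%), while it called 23.1% of all 15739 genes higher and 21.9% lower. The median log2 fold change of the members was 0.70, against -0.13 for all genes tested. In 45 members every control co-culture lay above every cells-alone library, a pattern found in 22.2% of all genes, and in 3 every control co-culture lay below, found in 17.6% of all genes. At an unadjusted p below 0.05 the shares were 60.9% of members and 52.6% of all genes. Within day 1 the counts were 46 higher and 5 lower, beside 3637 and 3427 of all genes. CPM is a share of all counted RNA, so a change in the number of these mRNAs per cell and a change in the rest of the RNA cannot be told apart, nor can fewer cells of a type and less RNA per cell. With counts scaled to library totals only, 27 members were higher and 6 lower, beside 2906 and 4626 of all genes. With an offset for gene length in each library the split was 16 higher and 8 lower, beside 3215 and 3307 of all genes. With length offsets the share of members called higher was thus no larger than that of all genes.

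In the co-cultures with STZ macrophages the same comparison with cells alone called fewer members. There were 19 higher (20.7%) and 6 lower (6.52%), while 20.9% of all genes were higher and 22.3% lower, so the share called higher was close to that of all genes. The median log2 fold change of the members was 0.35, against -0.05 for all genes. In 26 members all STZ co-cultures lay above all cells-alone libraries, against 21.7% of all genes, and in 4 members all lay below, against 17.9% of all genes. At an unadjusted p below 0.05 the shares were 41.3% of members and 51.2% of all genes. Without a term for day the counts were 42 and 5, beside 3728 and 3777 of all genes. Within day 1 they were 17 and 5, beside 3078 and 3041. A replicate block gave 8 and 1, beside 1933 and 1537. Library totals gave 15 and 9, beside 2945 and 3886, and length offsets gave 9 and 10, beside 3047 and 3530. Leaving out STZ replicate 5 gave 8 higher and 3 lower, beside 2545 and 2587 of all genes. Leaving out control replicate 4 gave 31 and 4, beside 3803 and 2705. Leaving out cells-alone replicate 2 gave 37 and 7, beside 4644 and 3379, and leaving out replicate 3 gave 35 and 4, beside 3812 and 2658. Without a day term, control replicate 4 or cells-alone replicate 2 or 3, a larger share of members than of all genes was higher. In the other fits given so far it was no larger. Without STZ replicate 1 or control replicate 3, 3 members were lower, beside 2793 and 2519 of all genes. Both comparisons use the same cells-alone libraries.

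**Figure D1:**
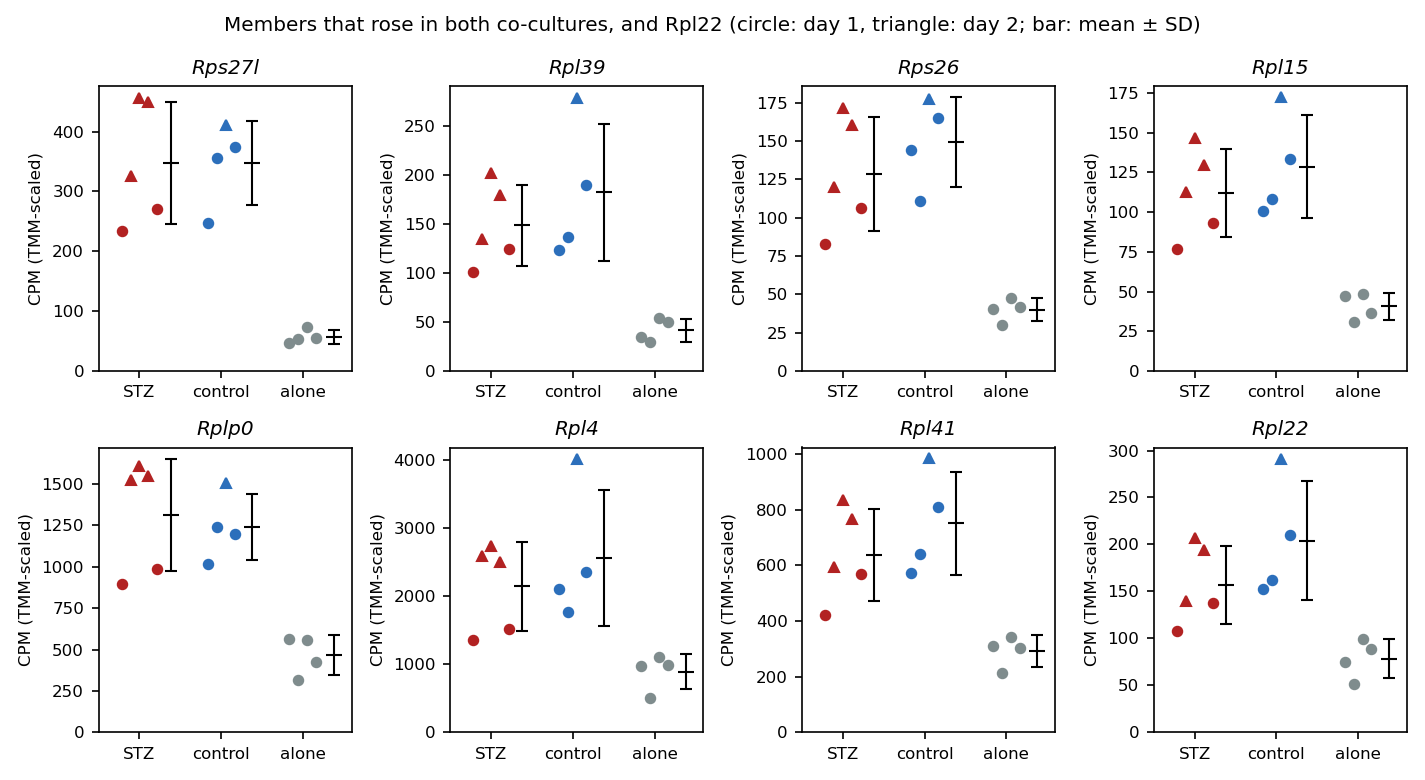
TMM-scaled CPM of 8 members in each library of STZ co-culture, control co-culture and cells alone (points; circles are day 1, triangles day 2), with mean and SD. Every co-culture library lay above every cells-alone library in all 8. As a ratio, Rps27l had the widest gap, with 234 CPM in the lowest co-culture library against 73.5 CPM in the highest library of cells alone.

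Among the large subunit proteins, 20 of 43 rose and 1 fell in control co-cultures relative to cells alone, and 7 rose and 2 fell in STZ co-cultures. Of all genes 23.1% and 21.9% did so in control and 20.9% and 22.3% in STZ co-cultures, so the count of 7 is no larger a share than that of all genes. Rpl39, a small protein at the exit tunnel of the nascent peptide, had 101, 135, 202, 179 and 125 CPM in STZ co-cultures, 124, 137, 278 and 190 CPM in control co-cultures, and 34.5, 29.1, 53.7 and 49.6 CPM in cells alone. Its log2 fold change was 1.37 ± 0.256 (SE) in STZ co-cultures (adjusted p = 0.000912) and 1.89 ± 0.244 (SE) in control co-cultures (adjusted p = 5.57e-05). No cells-alone library reached the lowest co-culture. Rpl15, an rRNA-binding protein of the large subunit core, had 77.0, 112, 147, 130 and 93.4 CPM in STZ co-cultures, 101, 108, 172 and 133 CPM in control co-cultures, and 47.4, 30.9, 48.3 and 36.3 CPM in cells alone. Its groups did not overlap. It rose by 1.07 ± 0.208 log2 units (SE) in STZ co-cultures and by 1.48 ± 0.194 (SE) in control co-cultures. Rpl4, whose long loop lines the exit tunnel, had 1364, 2595, 2747, 2511 and 1525 CPM in STZ co-cultures, 2106, 1772, 4015 and 2360 CPM in control co-cultures, and 971, 510, 1102 and 991 CPM in cells alone. Its groups did not overlap, and in each co-culture group the day 2 libraries were the highest. Rpl4 rose by 0.67 ± 0.235 log2 units (SE, adjusted p = 0.0342) in STZ co-cultures and by 1.23 ± 0.219 (SE, adjusted p = 0.000625) in control co-cultures. The STZ call was lost without STZ replicate 1 (0.71) or 5 (0.61) and within day 1. It was also lost with length offsets (0.355), a replicate block (0.71) and only STZ co-cultures and cells alone in the fit (0.75).

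Rpl41, the smallest ribosomal protein, which lies between the subunits and was named after its values were seen, had 421, 594, 835, 768 and 570 CPM in STZ co-cultures, 573, 640, 985 and 810 CPM in control co-cultures, and 310, 213, 343 and 303 CPM in cells alone. The groups did not overlap. It rose by 0.76 log2 units in STZ co-cultures (adjusted p = 0.0119) and by 1.20 in control co-cultures (adjusted p = 0.000373). The STZ call was lost without STZ replicate 5 (0.62), with GC offsets (0.35), with length offsets (0.40) and with a replicate block (0.79). Rpl38, whose loss in mice changes translation of Hox mRNAs, had 11.9, 15.2, 24.9, 25.4 and 16.3 CPM in STZ co-cultures, 16.7, 16.6, 25.1 and 26.5 CPM in control co-cultures, and 4.81, 7.41, 7.42 and 7.11 CPM in cells alone. Each co-culture library exceeded all cells-alone libraries. Its log2 fold change was 1.15 in STZ co-cultures (adjusted p = 0.0105), not called without STZ replicate 5 (1.04) or with GC offsets (0.47), and 1.53 in control co-cultures (adjusted p = 0.000972). Rpl13a, known in human monocytes as part of a complex that silences inflammatory mRNAs, had log2 fold changes of 0.13 in STZ co-cultures (adjusted p = 0.652) and 0.42 in control co-cultures (adjusted p = 0.0941), the second called without cells-alone replicate 1 (0.56) or 3 (0.55). Rpl5 and Rpl11, which with 5S rRNA can bind the p53 regulator Mdm2, were not called in either comparison of the main fit. Rpl5 had log2 fold changes of -0.94 in STZ and -0.40 in control co-cultures. The first was called without cells-alone replicate 1 (-1.06), with library totals (-1.05) and with length offsets (-1.17). In the authors' deposited table the second was called in the other direction (0.78). Rpl11 had -0.04 in STZ and 0.29 in control co-cultures.

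The stalk recruits elongation factors to the large subunit, and 3 of its 3 proteins rose in STZ co-cultures and 2 in control co-cultures. Of all genes 20.9% and 23.1% were called higher, and several of these stalk calls were lost in alternatives given below. Rplp0, the scaffold of the stalk, had 896, 1523, 1606, 1545 and 989 CPM in STZ co-cultures, 1017, 1239, 1502 and 1194 CPM in control co-cultures, and 565, 319, 560 and 426 CPM in cells alone. No library of cells alone reached a co-culture. It rose by 1.09 ± 0.211 log2 units (SE, adjusted p = 0.00118) in STZ co-cultures and by 1.25 ± 0.192 (SE, adjusted p = 0.000217) in control co-cultures. Rplp1, an acidic protein bound to Rplp0, rose by 0.78 and 0.71 in the same order (adjusted p = 0.00681 and 0.00558). The STZ call was lost with GC offsets (0.22), length offsets (0.445), a replicate block (0.89) and in the authors' deposited table (0.55). In control co-cultures Rplp1 was not called with library totals (0.40), length offsets (0.073) or in the authors' deposited table (0.25). Its partner Rplp2 rose by 1.66 ± 0.592 (SE, adjusted p = 0.0382) in STZ co-cultures and had a log2 fold change of 0.92 (adjusted p = 0.169) in control co-cultures. Rplp2 ranged from 34.9 to 75.1 CPM in STZ co-cultures, 16.9 to 62.7 CPM in control co-cultures and 5.48 to 51.4 CPM in cells alone, so its groups overlapped. Its call in STZ co-cultures was lost within day 1 (1.45), without a day term (1.07) and on leaving out STZ replicates 1, 2, 4 or 5, control replicate 1 or cells-alone replicate 3 (1.60 to 1.88). Library totals (1.48), a replicate block (1.51), length offsets (1.26) and the authors' deposited table (0.475) also lost it. So did a fit of only STZ co-cultures and cells alone (1.525). In control co-cultures Rplp2 was called without cells-alone replicate 2 (1.56) and with the principal component as a term (1.68).

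Among the small subunit proteins, 19 of 31 rose and 3 fell in control co-cultures relative to cells alone, and 5 rose and 3 fell in STZ co-cultures, the 5 again no larger a share than the 20.9% of all genes. Rps26, which lines the mRNA exit channel, had 83.0, 120, 172, 161 and 106 CPM in STZ co-cultures, 144, 111, 178 and 165 CPM in control co-cultures, and 40.2, 29.8, 47.7 and 41.9 CPM in cells alone. Its log2 fold change was 1.32 ± 0.229 (SE, adjusted p = 0.000528) in STZ co-cultures and 1.76 ± 0.211 (SE, adjusted p = 3.05e-05) in control co-cultures, and no library of cells alone reached a co-culture. Rps29, a zinc-binding protein of the small subunit head, had 10.7, 11.6, 25.9, 23.8 and 16.1 CPM in STZ co-cultures, 20.1, 14.3, 17.6 and 25.4 CPM in control co-cultures, and 1.86, 9.59, 3.84 and 3.58 CPM in cells alone. The lowest co-culture, STZ replicate 1, lay just above cells-alone replicate 2. It rose by 1.70 ± 0.534 (SE, adjusted p = 0.0212) in STZ co-cultures and by 1.98 ± 0.485 (SE, adjusted p = 0.00534) in control co-cultures. The STZ call was lost without STZ replicate 5 (1.62), with library totals (1.52) and with a replicate block (2.13). It was also lost with only STZ co-cultures and cells alone in the fit (1.59).

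Rps20, a protein of the small subunit head, had 114, 109, 141, 135 and 135 CPM in STZ co-cultures, 127, 150, 105 and 156 CPM in control co-cultures, and 64.2, 69.8, 64.8 and 51.7 CPM in cells alone. It rose by 1.11 and 1.14 log2 units (adjusted p = 0.000609 and 0.000232), and its STZ and control co-cultures covered nearly the same range. In the authors' deposited table its control call was lost (0.61). Rpsa, also known as the laminin receptor precursor, had 273, 421, 469, 422 and 315 CPM in STZ co-cultures, 349, 426, 549 and 422 CPM in control co-cultures, and 247, 106, 222 and 171 CPM in cells alone. Its groups did not overlap, though STZ replicate 1 lay close to cells-alone replicate 1. It rose by 0.68 (adjusted p = 0.0411) in STZ co-cultures and by 1.08 (adjusted p = 0.00211) in control co-cultures. The first call was lost within day 1 (0.66) and on leaving out STZ replicates 1, 2, 4 or 5, control replicate 2 or cells-alone replicate 4 (0.63 to 0.76). Library totals (0.59), a replicate block (0.695), GC offsets (0.56) and length offsets (0.42) also lost it. So did a fit of only STZ co-cultures and cells alone (0.72). Rps6, the substrate of the S6 kinases downstream of mTORC1, rose by 0.87 (adjusted p = 0.0069) in control co-cultures. That call was lost with length offsets (0.35) and with GC offsets (0.95). In STZ co-cultures its log2 fold change was 0.45 (adjusted p = 0.152). There it was called without control replicate 4 (0.65) or cells-alone replicate 3 (0.72). It was also called there without a day term (0.80), with the principal component as a term (0.72) and in the authors' deposited table (0.84). Rps4x, encoded on chromosome X, and Rps27a, made as a fusion with ubiquitin, rose in control co-cultures, by 0.82 (adjusted p = 0.012) and 0.79 (adjusted p = 0.0262). Their log2 fold changes in STZ co-cultures were 0.23 and 0.36, not called. Both were called there without a day term (0.85 and 0.84) and with the principal component as a term (0.57 and 0.69). The authors' deposited table also gave a call for both (0.86 and 1.42). Both control calls were lost with length offsets (0.27 and 0.25). They were also lost with only control co-cultures and cells alone in the fit (0.78 and 0.82). The Rps27a call was lost with library totals (0.48), and without control replicate 4 (0.66) or cells-alone replicates 1 (0.67) or 2 (0.72). The difference between the co-cultures is tested further below.

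**Figure D2:**
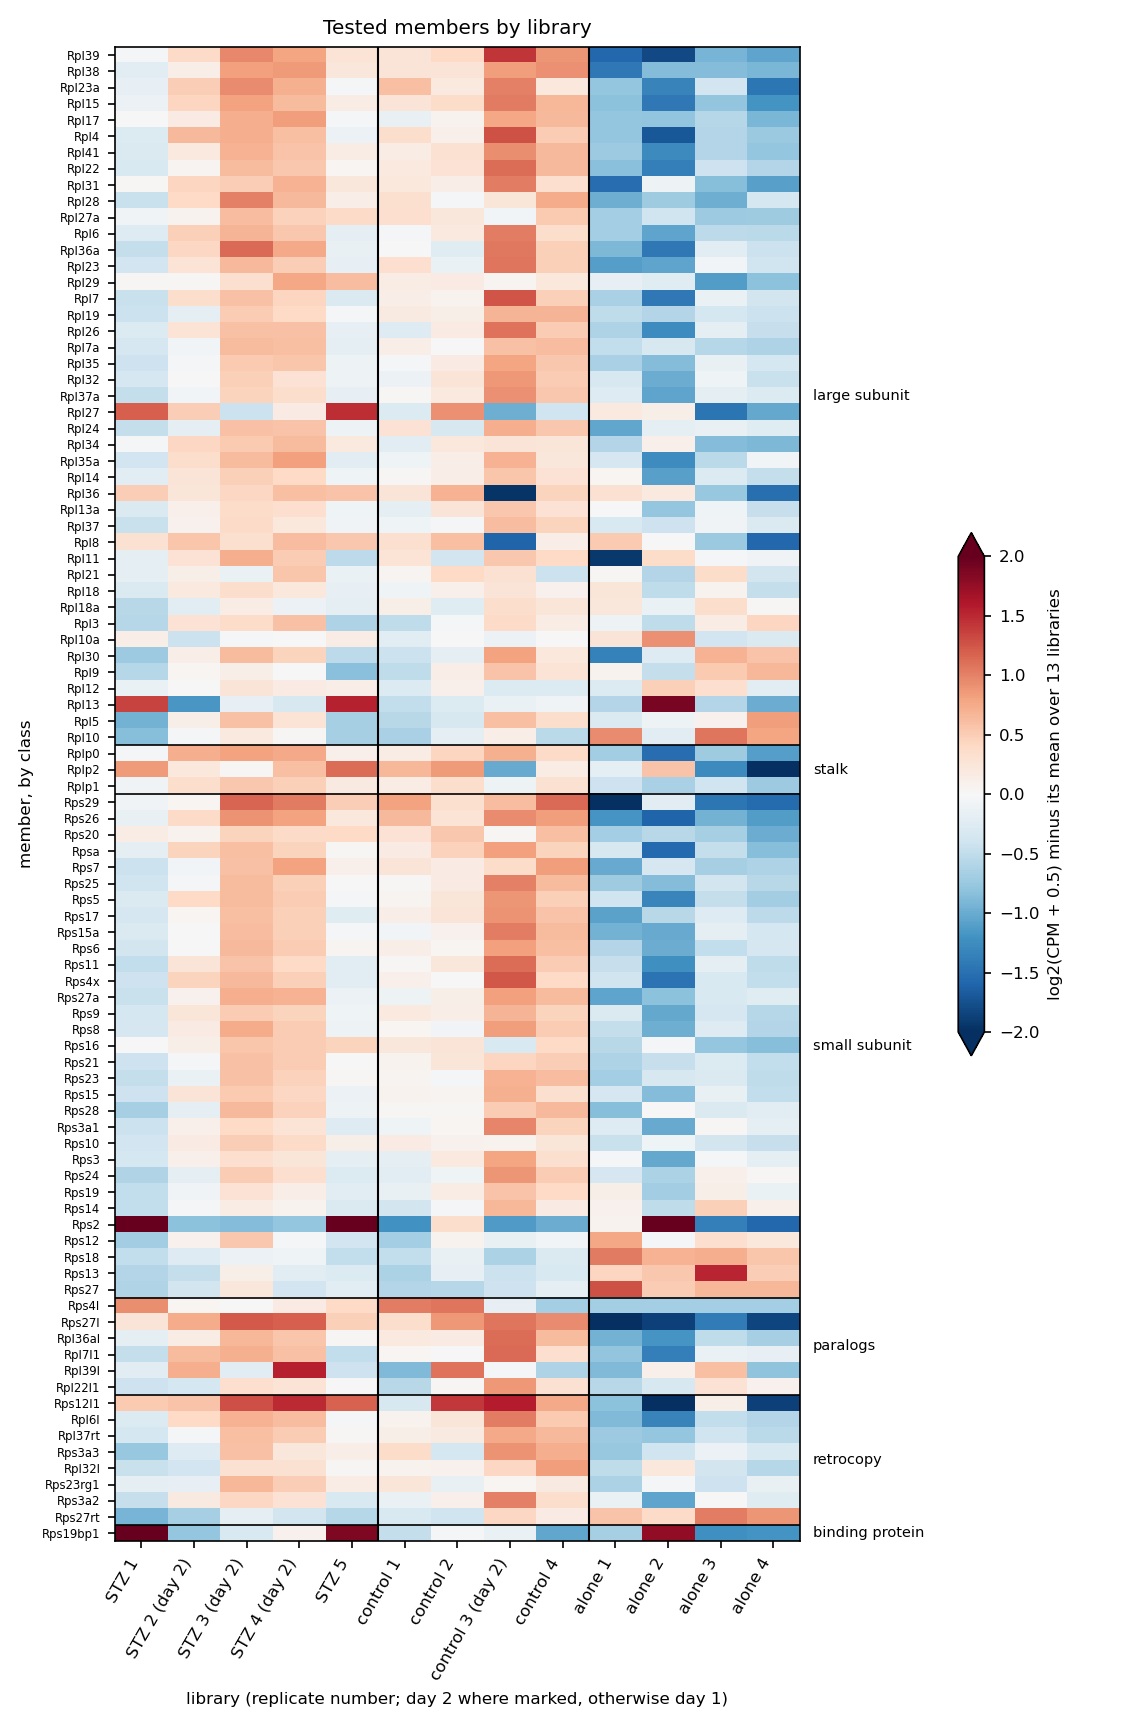
Each row is a tested member, by class and then by its fold change between control co-cultures and cells alone; each column is a library, with STZ co-cultures left of control co-cultures and cells alone. Colour gives log2(CPM + 0.5) minus the member's mean over the 13 libraries, and most rows are blue in cells alone and reddest in STZ 3, STZ 4, control 3 and control 4, while Rps2, Rpl13 and Rps19bp1 are red in STZ 1, STZ 5 and alone 2.

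The largest rise among members with counts in every library, and a fall of related copies, lay in the eS27 family. This protein of the small subunit is encoded by Rps27 and by its paralog Rps27l, known as a target gene of p53. Rps27rt is a single-exon retrocopy of Rps27 that the annotation lists as protein-coding. In the GRCm38 annotation Rps27 lies on chromosome 3 (90212522 to 90213651, minus strand), Rps27l on chromosome 9 (66946086 to 66949516, plus strand) and Rps27rt on chromosome 9 (114982366 to 114982739, minus strand). The sequences around their annotated starts, 25 bases before to 25 bases after, are from RefSeq's table for GRCm38.p6, and are shown because the first 2 share a run of 24 bases, in capitals. The run starts at base 2 of Rps27 and at base 1 of Rps27rt. Capitals in Rps27l mark the hexamer CGGAAG, which ETS-family factors can bind.
Rps27 (chr3:90213624-90213673, minus strand): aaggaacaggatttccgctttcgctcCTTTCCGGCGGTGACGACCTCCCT
Rps27rt (chr9:114982715-114982764, minus strand): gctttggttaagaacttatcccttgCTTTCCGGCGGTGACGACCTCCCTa
Rps27l (chr9:66946061-66946110, plus strand): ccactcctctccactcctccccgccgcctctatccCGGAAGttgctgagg

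Rps27l had 234, 326, 456, 449 and 270 CPM in STZ co-cultures, 248, 356, 411 and 375 CPM in control co-cultures, and 47.5, 52.8, 73.5 and 54.3 CPM in cells alone. It rose 4.69-fold in STZ co-cultures (log2 2.23 ± 0.226 SE, adjusted p = 8.5e-06) and 5.51-fold in control co-cultures (log2 2.46 ± 0.211 SE, adjusted p = 2.19e-06). Its lowest co-culture lay well above its highest library of cells alone, and it was called under every alternative run, at 1.91 to 2.90 log2 units in STZ and 1.86 to 2.98 in control co-cultures. None of its 100-base stretches occurs in another gene of the annotation. Rps27rt went the other way, with 187, 226, 316, 277 and 243 CPM in STZ co-cultures, 290, 272, 480 and 402 CPM in control co-cultures, and 532, 468, 728 and 662 CPM in cells alone. Its log2 fold change was -1.53 ± 0.224 (SE, adjusted p = 0.00016) in STZ co-cultures, where no library reached the lowest of cells alone, and -0.86 ± 0.205 (SE, adjusted p = 0.00445) in control co-cultures, where control replicate 3 overlapped with cells alone and the call was lost in the authors' deposited table (-0.46). Rps27 itself averaged 2.43 ± 0.671 CPM in STZ co-cultures (SD, n = 5), 2.06 ± 0.328 CPM in control co-cultures (SD, n = 4) and 5.55 ± 1.55 CPM in cells alone (SD, n = 4). It fell by 1.32 log2 units in STZ co-cultures (adjusted p = 0.017) and by 1.48 in control co-cultures (adjusted p = 0.00488). Of its 100-base stretches 57.9% occur in another gene, and of those of Rps27rt 89.5%, so how the counts were divided between these 2 genes is uncertain. Rps27 was named after its values were seen. Its call in STZ co-cultures was lost without STZ replicate 1 (-1.14) or control replicate 3 (-1.17). It was also lost without the count filter (-1.05), with a replicate block (-1.45) and with only STZ co-cultures and cells alone in the fit (-1.315).

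The log2 ratio of Rps27l to Rps27 was 6.87 ± 0.341 in STZ co-cultures (SD, n = 5), 7.07 ± 0.26 in control co-cultures (SD, n = 4) and 3.26 ± 0.523 in cells alone (SD, n = 4). The exact two-sided permutation p was 0.0159 for STZ and 0.0286 for control co-cultures against cells alone, the smallest these groups can give, and both became 0.129 after adjustment over 18 ratios and comparisons. With Rps27 and Rps27rt summed, the ratio was higher by 3.82 and 3.34 log2 units. Rpl22, an RNA-binding protein of the large subunit that mouse alpha-beta T cells need to develop, had 108, 140, 207, 194 and 138 CPM in STZ co-cultures, 153, 162, 291 and 210 CPM in control co-cultures, and 74.7, 51.3, 99.7 and 88.8 CPM in cells alone. It rose by 1.18 ± 0.228 log2 units (SE, adjusted p = 0.00111) in control co-cultures. In STZ co-cultures its log2 fold change, 0.60 ± 0.243 (SE), was not called (adjusted p = 0.0632), although the groups did not overlap, and it was called on leaving out STZ replicate 3, control replicates 3 or 4, or cells-alone replicates 2 or 3 (0.64 to 0.97). RLE size factors (0.74), DESeq2 (0.74), no count filter (0.87) and no day term (0.999) also gave a call for Rpl22. So did the principal component as a term (0.95) and the authors' deposited table (1.15). Its paralog Rpl22l1, which Rpl22 is known to repress in mice, had log2 fold changes of -0.24 (adjusted p = 0.534) in STZ and 0.16 (adjusted p = 0.671) in control co-cultures. The second was called in the authors' deposited table (0.996). The log2 ratio of Rpl22l1 to Rpl22 was -1.67 ± 0.147 in STZ co-cultures (SD, n = 5), -1.84 ± 0.235 in control co-cultures (SD, n = 4) and -0.77 ± 0.321 in cells alone (SD, n = 4), with the same exact p values of 0.0159 and 0.0286 and adjusted p of 0.129.

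Rpl36al, an expressed copy of Rpl36a, had 254, 322, 464, 431 and 296 CPM in STZ co-cultures, 334, 328, 632 and 454 CPM in control co-cultures, and 151, 129, 205 and 185 CPM in cells alone. No library of cells alone reached a co-culture. It rose by 0.67 log2 units in STZ co-cultures (adjusted p = 0.0218) and by 1.18 in control co-cultures (adjusted p = 0.000414). The STZ call was lost without STZ replicate 5 (0.56) and with length offsets (0.28). Rpl7l1, a relative of Rpl7 known for a role in assembly of the large subunit, rose by 0.65 (adjusted p = 0.0421) in control co-cultures, a call lost within day 1 (0.67) and on leaving out any of 9 libraries, namely all 5 of STZ, control replicates 1, 2 or 4, or cells-alone replicate 1 (0.58 to 0.70). The same control call was lost with library totals (0.35), DESeq2 (0.68), GC offsets (0.56), length offsets (0.565) and only those groups in the fit (0.67). In STZ co-cultures the value of Rpl7l1 was 0.08. It was called there in the authors' deposited table (1.31) and with the principal component as a term (0.57). Rps4l, a copy of Rps4x annotated as a transcribed pseudogene, was rare. It had 102 counts over the STZ co-cultures and 112 over the control co-cultures, and none over the 4 cells-alone libraries, where 3 counts over the group would be 0.0225 CPM. Its pooled level was therefore at least 23.3-fold higher in STZ and at least 32.8-fold higher in control co-cultures, although control replicate 4 also had none, and its calls were lost with a replicate block. Rpl39l, a paralog of Rpl39 known from the male germline, was at most 2.22 CPM in STZ co-cultures, 1.45 CPM in control co-cultures and 0.897 CPM in cells alone, and was not called. Rpl3l, a muscle paralog of Rpl3, and Rpl10l, a testis paralog of Rpl10, reached at most 0.557 and 0.708 CPM in any library and were not tested. Of all 18 paralog ratio comparisons, none passed after adjustment. Among the 8 retrocopies, 2 rose in control co-cultures, 1 rose in STZ co-cultures, and 1, Rps27rt, fell in each. Beside 23.1% and 20.9% of all genes higher and 21.9% and 22.3% lower, these counts are near or below the shares of all genes. Rpl6l and Rpl37rt rose in control co-cultures by 1.08 and 0.92 log2 units (adjusted p = 0.000778 and 0.00204), the second lost with length offsets (0.325). Only Rpl6l rose in STZ co-cultures, by 0.64 (adjusted p = 0.028). That call was lost without STZ replicate 5 (0.56), with GC offsets (0.38), length offsets (0.25), a replicate block (0.80) and only those groups in the fit (0.71). Rpl37rt had 0.48 there and was called on leaving out STZ replicate 3, control replicates 3 or 4, or cells-alone replicates 2 or 3 (0.62 to 0.79). It was also called there with RLE size factors (0.62), DESeq2 (0.62), no count filter (0.75) and no day term (0.80). The principal component as a term (0.66) and the authors' deposited table (0.93) gave a call too. Both were named after their values were seen.

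Besides Rps27 and Rps27rt, 3 members were called lower in both co-cultures. Rpl10, which joins the large subunit last and is needed for it to bind the small one, had 10.5, 18.8, 22.3, 19.6 and 12.03 CPM in STZ co-cultures, 12.2, 16.9, 21.1 and 13.1 CPM in control co-cultures, and 37.8, 16.4, 41.1 and 33.6 CPM in cells alone. Its log2 fold change was -1.46 ± 0.325 (SE, adjusted p = 0.00304) in STZ and -1.24 ± 0.289 (SE, adjusted p = 0.00404) in control co-cultures, with cells-alone replicate 2 among the co-cultures. The STZ call was lost with a replicate block (-1.31). Rps18, at the interface between the subunits, had 6.79, 8.08, 8.9, 9.13 and 6.74 CPM in STZ co-cultures, 6.74, 8.68, 6.08 and 7.87 CPM in control co-cultures, and 20.5, 15.9, 16.4 and 14.4 CPM in cells alone. All co-cultures lay below all cells-alone libraries. It fell by 1.15 log2 units in STZ co-cultures (adjusted p = 0.00741) and by 1.22 in control co-cultures (adjusted p = 0.00212). The STZ call was lost without STZ replicate 5 (-1.03), without the count filter (-0.87) and with a replicate block (-1.07). Rps13, an early binder of small subunit rRNA named after its values were seen, averaged 5.92 CPM in STZ co-cultures, 5.46 CPM in control co-cultures and 13.2 CPM in cells alone, with log2 fold changes of -1.24 and -1.30. The STZ call was lost on leaving out STZ replicates 1, 3 or 5, control replicates 3 or 4, or cells-alone replicate 3 (-1.30 to -0.64). It was also lost without the count filter (-0.97) and with a replicate block (-0.71). With only the groups compared in the fit, the STZ (-1.26) and control (-1.25) calls were both lost. Rpl9, another large subunit protein, fell by 0.95 log2 units in STZ co-cultures (adjusted p = 0.0379) and had -0.29 (adjusted p = 0.454) in control co-cultures. Its call was lost within day 1 (adjusted p = 0.0589) and on leaving out any library except cells-alone replicates 1 and 2 (-1.005 to -0.60). It was also lost with RLE size factors (-0.81), without the count filter (-0.67), without a day term (-0.48) and with a replicate block (-0.51). The principal component as a term (-0.52), only STZ co-cultures and cells alone in the fit (-0.93) and the authors' deposited table (-0.16) lost it too.

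For Rpl10, Rps13, Rps18 and Rpl9 the decline was called in the single entry but not in the sum with its copies. From which copy the reads came was not tested. When each gene was summed with its named pseudogenes and retrocopies, an alternative added after the data were seen, 84 families were tested. The family sum of Rpl10 was 810 ± 224 CPM in STZ co-cultures (SD, n = 5), 967 ± 337 CPM in control co-cultures (SD, n = 4) and 318 ± 83.2 CPM in cells alone (SD, n = 4), a rise of 0.84 (adjusted p = 0.00814) and 1.36 log2 units (adjusted p = 0.000198) where the Rpl10 entry fell. The Rps13 family rose by 0.85 (adjusted p = 0.00202) and 1.14 log2 units (adjusted p = 0.000124), and the Rps18 family had log2 fold changes of 0.07 and 0.49, neither called. The Rpl9 family had -0.17 (adjusted p = 0.618) in STZ and 0.43 (adjusted p = 0.146) in control co-cultures. The Rps27 family remained lower, with 253 ± 50.6 CPM in STZ co-cultures (SD, n = 5), 364 ± 99.2 CPM in control co-cultures (SD, n = 4) and 600 ± 118 CPM in cells alone (SD, n = 4), or -1.52 ± 0.225 (SE, adjusted p = 0.000168) and -0.85 ± 0.205 log2 units (SE, adjusted p = 0.00472). Of the 84 families, 58 were higher in control co-cultures and 1, Rps27, was lower, against 23.1% and 21.8% of all entries in that fit. In STZ co-cultures 30 were higher and 1 lower, against 21.1% and 22.3%, and between STZ and control co-cultures 0 were called in either direction, against 0.141% and 0.167%. The median over families was 0.40 in STZ and 0.81 in control co-cultures.

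**Figure D3:**
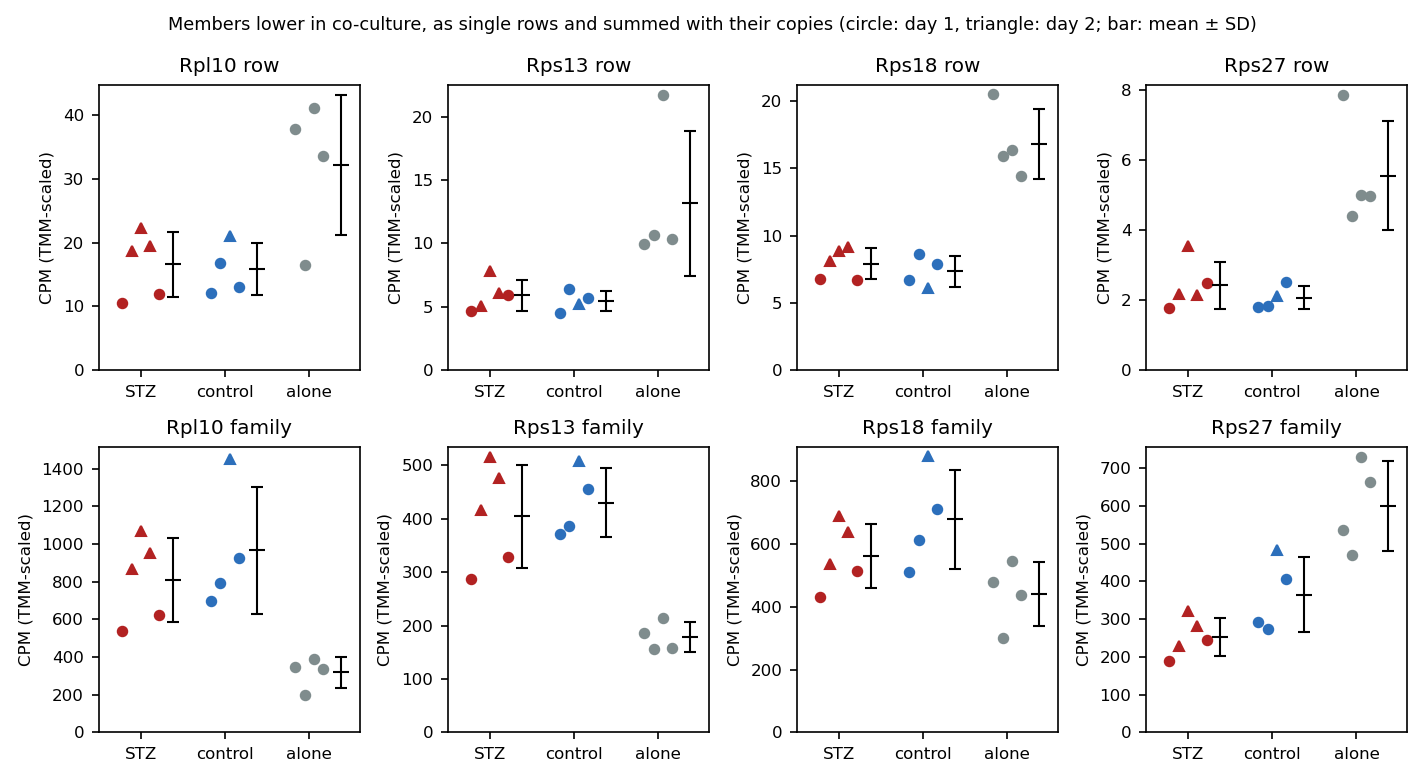
CPM of Rpl10, Rps13, Rps18 and Rps27 in STZ co-cultures, control co-cultures and cells alone, as single table entries (top) and summed with their named pseudogenes and retrocopies (bottom); points are libraries, circles day 1 and triangles day 2, and bars are mean and SD. All 4 entries are lower in co-culture, but of the sums only that of Rps27 is.

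Sequence shared with other genes was measured for all 94 members in the GENCODE annotation of GRCm38. A median of 29.7% of a member's 100-base stretches occurred in another annotated gene, 26 members shared 50% or more, and 10 shared none. Among the 21 tested members with at most 10% shared, 14 were higher and 0 lower in control co-cultures, with a median log2 fold change of 0.69, and 5 were higher and 1 lower in STZ co-cultures, with a median of 0.38. Among the 15 with over 60% shared, 5 were higher and 2 lower in control co-cultures, and 1 was higher and 2 lower in STZ co-cultures. The shares over all genes were 23.1% higher and 21.9% lower in control co-cultures and 20.9% and 22.3% in STZ co-cultures. Each member called lower in control co-cultures shared at least 28.7% of its stretches.

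**Figure D4:**
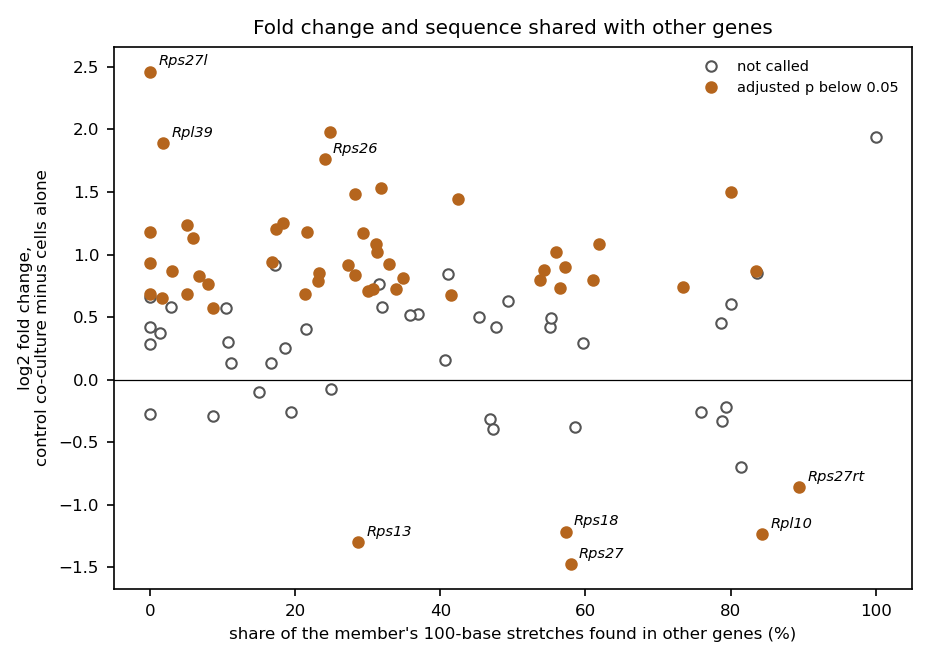
Each point is a tested member (Rps4l left out): the share of its 100-base stretches found in other annotated genes (x, percent) against its log2 fold change between control co-cultures and cells alone (y). Filled points were called by edgeR; the 5 called lower, labelled Rps13, Rps18, Rps27, Rpl10 and Rps27rt, lie between 28.7% and 89.5%, while Rps27l lies at 0%.

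Between the STZ and control co-cultures no ribosomal protein gene was called. The counts were 0 higher and 0 lower of 92, beside 0.14% and 0.159% of all genes, and the smallest adjusted p was 0.144, for Rps27rt. At an unadjusted p below 0.05 there were 2 members higher and 29 lower, 33.7% of the members against 22.8% of all genes, and DESeq2 called 0 in either direction after adjustment. These 31 members became 7 with DESeq2, 6 with RLE size factors, 5 with library totals, 6 without the count filter, 7 with a replicate block, 2 without a day term, 0 with the principal component as a term, 6 within day 1 and 4 within day 2. They became 7, 18 and 3 without STZ replicate 1, 2 or 3, and 3 and 2 without control replicate 3 or 4. Without cells-alone replicate 2 or 3 they became 15 and 5. The count was 21 and 25 without STZ replicate 4 or 5, and 28 and 24 without control replicate 1 or 2. Without cells-alone replicate 1 or 4 it was 27 and 26. It was 30 with GC offsets and 31 with TMM factors computed without the members. It was 13 with length offsets, 16 with only these groups and 9 in the authors' deposited log2 values. With families summed, 1 of 84 was higher and 44 lower at that unadjusted threshold. The median log2 fold change was -0.40 for the members and -0.13 for all genes, and 19 of 92 members had a positive value. In no member did all STZ co-cultures lie above or below all control co-cultures, which held for 2.47% and 5.07% of all genes. The member share of counts was 1.69% ± 0.321 in STZ co-cultures (SD, n = 5) and 1.77% ± 0.237 in control co-cultures (SD, n = 4). With only the libraries of these 2 groups in the fit, 2 members were called higher and 6 lower, but so were 1491 and 1193 of all genes, so these calls are not a result about the members.

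The member share differed by day as well as by group. Within STZ co-cultures the share was 1.62%, 2.03% and 1.99% in the 3 libraries of day 2, and 1.29% and 1.48% in those of day 1. Within control co-cultures it was 2.04% in the 1 library of day 2, and 1.48%, 1.69% and 1.85% in those of day 1. The median log2 fold change of the members, less that of all genes, was -0.24 within day 1 and -0.14 within day 2, and no member was called within either day. The effect of STZ macrophages on day 2 minus that on day 1 was called in 0 members, with 3 at an unadjusted p below 0.05 higher and 1 lower, and in 0.00635% of all genes. Day 2 rests on 1 control library.

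**Figure D5:**
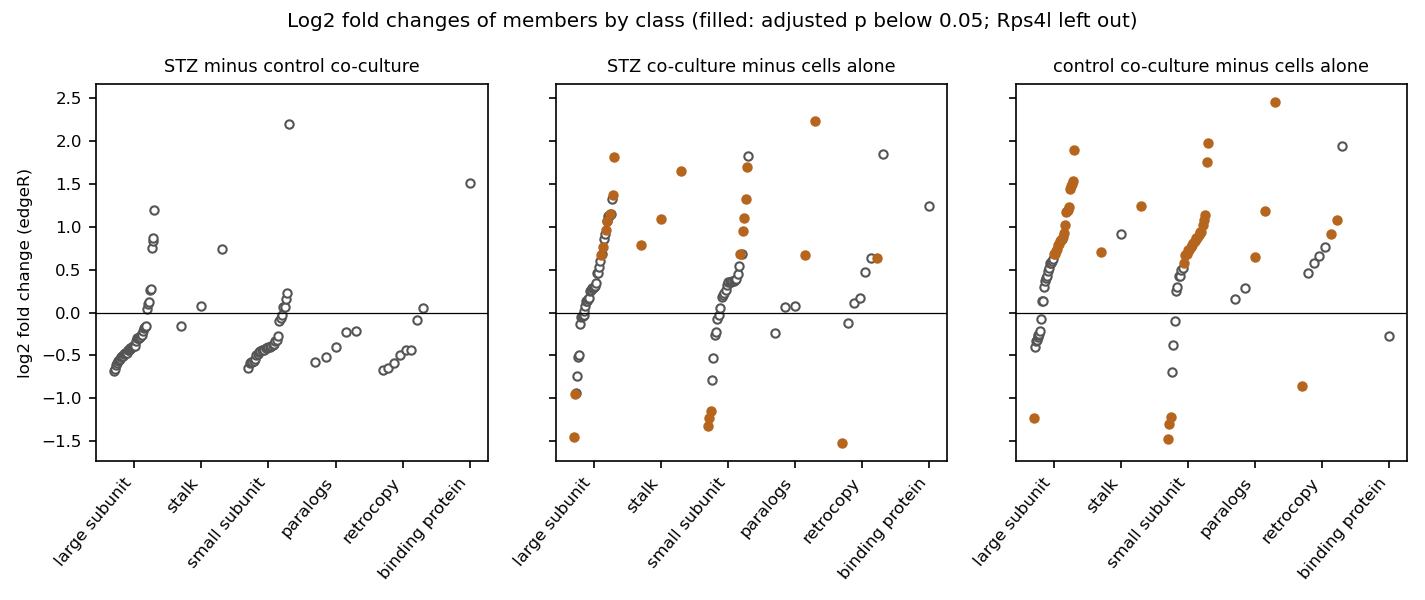
Log2 fold changes from edgeR for each tested member (Rps4l left out), by class, in 3 comparisons: STZ minus control co-culture, STZ co-culture minus cells alone, and control co-culture minus cells alone. Filled points had an adjusted p below 0.05; none is filled in the first panel, and most filled points lie above 0 in the other 2.

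Some members followed another course over the libraries. Over 13 libraries, 54 of 92 members had a Pearson r above 0.8 with the median log2 CPM of all members, and 13 had an r below 0. These points share library, depth and composition, and the values are descriptive. The 13 were Rpl10, Rpl10a, Rpl12, Rpl13, Rpl27, Rpl36, Rps12, Rps13, Rps18, Rps19bp1, Rps2, Rps27 and Rps27rt. Their median GC content was 54.8%, against 50.1% for the 54. Rps2, a small subunit protein at the mRNA entry channel, had 175, 10.0, 9.76, 10.4 and 144 CPM in STZ co-cultures, 7.54, 23.4, 8.01 and 8.88 CPM in control co-cultures, and 19.1, 82.0, 6.73 and 5.75 CPM in cells alone. It was high in STZ replicates 1 and 5 and in cells-alone replicate 2, and the groups overlapped. Rpl13, a large subunit protein, had 67.5, 11.4, 23.2, 20.8 and 77.0 CPM in STZ co-cultures, 18.5, 21.6, 23.7 and 24.8 CPM in control co-cultures, and 17.2, 98.3, 17.2 and 12.9 CPM in cells alone, with the same 3 libraries high. Rps19bp1 reached 12.1 and 10.2 CPM in STZ replicates 1 and 5 and 9.57 CPM in cells-alone replicate 2, and was at most 2.63 CPM elsewhere. Those 3 libraries were also the highest of the 13 on the first principal component of the cells-alone libraries given above.

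Rpl8, which lies near the peptidyl transferase centre, had 320, 383, 325, 397 and 379 CPM in STZ co-cultures, 325, 392.1, 84.8 and 284 CPM in control co-cultures, and 374, 260, 154 and 86.6 CPM in cells alone. It was lowest in control replicate 3 and cells-alone replicate 4, at -86.4 and -57.4 the lowest of all libraries on that component. Rpl36, another large subunit protein, was likewise lowest in these 2 libraries, at 9.62 and 13.4 CPM, and at 45.97 to 59.6 CPM in STZ co-cultures. Over the 92 members the Pearson r of GC content with the log2 fold change between STZ and control co-cultures was 0.42, with that between STZ co-cultures and cells alone 0.22, and with that between control co-cultures and cells alone 0.04. These are across genes, which are not independent replicates. None of these 5 was called in any comparison, but alternatives differed. In STZ co-cultures relative to cells alone Rps2, Rpl13, Rps19bp1 and Rpl36 were called higher without cells-alone replicate 2 (3.48, 1.94, 3.13 and 1.73), Rpl8 and Rpl36 without cells-alone replicate 1 (1.54 and 1.61) and Rps2 without control replicate 3 (2.74). Rps2 was also called higher there within day 1 (2.49), with only those groups (2.59) and with its family summed (1.82), and Rpl8 and Rpl36 with DESeq2 (1.30 and 1.502), Rpl36 also with RLE size factors (1.498). Between STZ and control co-cultures Rps2 was called higher with only those groups (2.42), and in the authors' deposited table Rps2, Rpl8 and Rpl36 were lower in control co-cultures than in cells alone (-2.499, -1.97 and -2.06). Rps2, Rpl13, Rps19bp1, Rpl8 and Rpl36 were named after their values were seen.

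Promoters of the members, whatever their fold change, were examined for letters around the start. RefSeq's promoter table for GRCm38.p6 held 81 promoters for 69 of the 94 members, each spanning 250 bases before to 50 after the start. The hexamer CGGAAG, on either strand (reverse CTTCCG), was in 58.0% of member promoters and in 16.9% of all 32851 promoters. The pentamer CTTTC, on either strand (reverse GAAAG), in the 50 bases around the start was in 33.3% of member promoters and 12.5% of all. Neither motif contains the other, and they can share letters only at their ends. Windows of 50 bases around the start are shown for 6 of the members named for their rise in control co-cultures, with matches in capitals.
Rpl38 (chr11:114668555-114668604, plus strand): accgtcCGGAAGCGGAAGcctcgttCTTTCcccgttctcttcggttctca
Rps26 (chr10:128626482-128626531, minus strand): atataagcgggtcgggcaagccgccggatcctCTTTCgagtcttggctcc
Rpl15 (chr14:18270962-18271011, minus strand): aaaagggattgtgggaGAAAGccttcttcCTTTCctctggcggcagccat
Rplp0 (chr5:115559442-115559491, plus strand): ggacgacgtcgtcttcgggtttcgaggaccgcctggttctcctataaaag
Rpl4 (chr9:64173362-64173411, plus strand): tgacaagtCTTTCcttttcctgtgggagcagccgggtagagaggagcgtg
Rpl39 (chrX:37085198-37085247, minus strand): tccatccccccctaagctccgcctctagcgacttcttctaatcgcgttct

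In these windows Rpl38 held both strings, Rps26, Rpl15 and Rpl4 held CTTTC, and Rplp0 held neither. Rpl39, with the highest log2 fold change of the 6 in control co-cultures, held neither as well. The window of Rpl22, not shown, held neither. The share of CGGAAG above was counted over the whole promoter, so its absence from a window says nothing about the rest. A match is a description of the letters.

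Other genes of translation were counted in the same fit, from lists chosen with earlier results of these data known. Of all genes, 20.9% were higher and 22.3% lower in STZ co-cultures and 23.1% higher and 21.9% lower in control co-cultures, with medians of -0.05 and -0.13 as the background of the counts that follow. Of 22 further genes with TOP mRNAs, such as elongation and initiation factors, 8 rose and 0 fell in STZ co-cultures and 17 rose and 0 fell in control co-cultures relative to cells alone, with medians of 0.48 and 0.81. The nucleosome assembly protein Nap1l1 had 114 ± 11.6 CPM in STZ co-cultures (SD, n = 5), 108 ± 19.7 CPM in control co-cultures (SD, n = 4) and 28.7 ± 5.92 CPM in cells alone (SD, n = 4), and the nucleolar chaperone Npm1 had 568 ± 236, 556 ± 258 and 141 ± 37.4 CPM in the same order. Fau, which encodes a ribosomal protein fused to a ubiquitin-like protein and falls outside the rule by name, rose by 1.10 log2 units in STZ co-cultures (adjusted p = 0.00253) and by 0.94 in control co-cultures (adjusted p = 0.00317). The STZ call was lost with GC offsets (0.42) and a replicate block (1.06), and the control call with length offsets (0.36) and in the authors' deposited table (0.58). Rack1, a scaffold on the small subunit also outside the rule, had 690 ± 226 CPM in STZ co-cultures (SD, n = 5), 673 ± 190 CPM in control co-cultures (SD, n = 4) and 263 ± 67.1 CPM in cells alone (SD, n = 4), and rose by 0.81 and 1.11 log2 units.

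Mitochondrial ribosomal proteins, the separate set used inside mitochondria, gave 28 of 78 higher and 1 lower in STZ co-cultures and 30 higher and 1 lower in control co-cultures, with a median of 0.69 in both. Of 30 ribosome assembly factors, 9 rose and 4 fell in STZ co-cultures and 11 rose and 3 fell in control co-cultures. Mrto4, needed to place the stalk proteins, rose by 0.96 and 1.08, while Sbds, which helps to release a factor that keeps the subunits apart, fell by 0.91 log2 units in STZ co-cultures. Of 11 genes of RNA polymerase I, which transcribes rRNA, 0 rose and 3 fell in STZ co-cultures and 2 rose and 2 fell in control co-cultures. Taf1a, a subunit of its promoter factor, fell by 2.24 and 1.67 log2 units. Of 25 mTORC1 and TOP regulators, 4 rose and 4 fell in STZ co-cultures and 2 rose and 8 fell in control co-cultures; the counts in STZ co-cultures are below the shares of all genes. Tsc1, an inhibitor of mTORC1, fell by 1.64 and 1.43 log2 units. Sesn2, another inhibitor of mTORC1, rose by 3.13 in STZ co-cultures (adjusted p = 0.00301), while Deptor, also an inhibitor, fell by 3.06 in control co-cultures (adjusted p = 0.00304). Max, the partner of Myc, rose by 1.94 and 2.35.

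Of 9 tested genes of ribosome rescue, 0 rose and 3 fell in STZ co-cultures, and 2 rose and 2 fell in control co-cultures, the last being about the shares of all genes. Of 8 genes of p53, its regulators and its targets, 3 rose and 2 fell in STZ co-cultures and 2 rose and 2 fell in control co-cultures, where the counts are near the shares of all genes. Ccng1, a p53 target, had 597 ± 154 CPM in STZ co-cultures (SD, n = 5), 379 ± 149 CPM in control co-cultures (SD, n = 4) and 137 ± 61.9 CPM in cells alone (SD, n = 4). Cdkn1a, the p53-induced cell cycle inhibitor, had 328 ± 124 CPM in STZ co-cultures, 112 ± 43.0 CPM in control co-cultures and 0.146 ± 0.291 CPM in cells alone. Bbc3, a p53 target that promotes cell death, went the other way and fell by 2.82 log2 units in STZ co-cultures (adjusted p = 0.0208) and by 3.80 in control co-cultures (adjusted p = 0.00327). Between STZ and control co-cultures none of these lists held a called gene. The genes outside the members that followed the members' median log2 CPM most closely over the 13 libraries were Chchd1 (r = 0.986), Pfdn4 (0.983), Eef1b2 (0.982), Naca (0.981) and Slirp (0.979), as a description.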

How the data were processed

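Per the labels' protocols, the libraries were made from 10 ng of RNA with RIN above 8 and sequenced as paired reads of 150 bases, which were aligned to the Ensembl GRCm38 assembly. Neither aligner nor counter is stated in the labels, and the submitters' processing notes name DESeq2. The deposited main table holds estimated counts per gene entry, not normalized by the authors, with the unit judged from its values: 11.02% are not whole and library sums differ. A second deposited table holds log2 values that the authors adjusted in a way the labels do not state, and was used, through limma 3.58.1, for 1 alternative alone.

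Of 55774 entries, 348 that repeated another entry's symbol and values were left out. Estimated counts were rounded to whole numbers and tested in edgeR 4.0.16 (R 4.3.3) by the robust quasi-likelihood F test with TMM scaling, filterByExpr by group, terms for group and day, all 13 libraries, and Benjamini-Hochberg adjustment over the 15739 genes tested. Calls had an adjusted p below 0.05, and SE is the absolute log2 fold change divided by the square root of F. The test was checked on simulated data. Each paralog's log2 ratio (CPM + 0.5) to its partner was compared by an exact two-sided permutation test with scipy 1.17.1. Shared sequence was counted as 100-base stretches of a member's transcripts found in another gene's transcripts. DESeq2 1.42.0 and the alternatives in the closing section were also run. Depth differed up to 3.54-fold between libraries, and 3 counts equalled 0.0494 to 0.134 CPM in single libraries, a floor for counting error only.

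Named members were, in each comparison, up to 8 called members at either end of the log2 fold changes (mean log2 CPM of 3 or more), all paralogs, the stalk, and Rpl5, Rpl10, Rpl11, Rpl13a, Rpl22, Rps4x, Rps6, Rps27a and Rpsa. Of the other lists the 4 genes with the smallest p per comparison could be named. The members and lists were chosen with earlier results of these data known. The titles call the libraries biological replicates, but the labels do not say whether these came from separate mice. The p-values therefore measure the spread between these libraries, which may not be that between mice. Deviations of same-numbered control and cells-alone libraries correlated at 0.16 to 0.35 in all 4 pairs. Libraries of different numbers reached 0.43 (control replicate 3 with cells-alone replicate 4), so the data do not show that the numbers pair them. With a replicate block the control comparison with cells alone gave 44 members higher and 5 lower, beside 3291 and 2576 of all genes.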

Additional observations from a re-analysis of the deposited data

Results flagged for a closer look

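In 114 groups of values of named members, 5 held a library far from the others of its group; chance flags about 1 group in 20. Rpl38 had 4.81 CPM in cells-alone replicate 1, against 7.11 to 7.42 CPM in the other cells-alone libraries. Rps13 had 21.7 CPM in cells-alone replicate 3, against 9.94 to 10.7 CPM in the others. Rpl13 had 98.3 CPM in cells-alone replicate 2, against 12.9 to 17.2 CPM in the others, and Rps19bp1 had 9.57 CPM there, against 0.762 to 1.35 CPM. Rps2 had 23.4 CPM in control replicate 2, against 7.54 to 8.88 CPM in the other control co-cultures. Rpl13, Rps13, Rps19bp1 and Rps2 were among the members chosen after their values were seen.

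The named pseudogenes of ribosomal protein genes, outside the members, took up 1.224% of all counts in STZ co-cultures, 1.297% in control co-cultures and 0.8567% in cells alone.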

How the results depend on the processing

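Between STZ and control co-cultures 0 members were called in either direction under every alternative run except a fit of only these 2 groups, with 2 higher and 6 lower beside 1491 and 1193 of all genes. For control co-cultures against cells alone the 47 higher became 27 with library totals, 28 with only these groups and 16 with length offsets, and 33 to 52 on leaving out a library, and the 5 lower became 9 in the authors' deposited log2 table, 8 with length offsets and 1 with families summed, staying at 5 on leaving out a library. Of all genes, the 3634 higher became 2906 with library totals, 2418 with only these groups and 3215 with length offsets, and 3230 to 3871 on leaving out a library. The 3446 lower of all genes became 4687 in the authors' table, 3307 with length offsets and 3407 with families summed. For STZ co-cultures against cells alone the 19 higher became 30 with RLE size factors, 33 with DESeq2, 48 in the authors' deposited table, 42 without the day term, 8 with a replicate block, 36 with the principal component as a term, 9 with length offsets and 30 with families summed, and 8 to 37 on leaving out a library. In the same order the 3282 higher of all genes became 3707, 4494, 4013, 3728, 1933, 3751, 3047 and 3286, and 2545 to 4644 on leaving out a library. The 6 lower members became 2 without the count filter, 3 with only these groups, 1 with a replicate block, 10 with length offsets and 1 with families summed, and 3 to 8 on leaving out a library. In the same order the 3511 lower of all genes became 2384, 2379, 1537, 3530 and 3481.

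These reversed. With families summed, Rpl10 had 0.84 in STZ and 1.36 in control co-cultures relative to cells alone, Rps13 had 0.85 and 1.14, and Rps18 had 0.067 and 0.49; the sums add the copies' counts. In the authors' deposited table Rpl11 had 2.598 in STZ co-cultures, and in control co-cultures Rpl5 had 0.78, Rpl8 had -1.97 and Rpl36 had -2.06; the cause was not tested. The members' median log2 fold change less that of all genes was -0.31 to -0.07 between STZ and control co-cultures, 0.08 to 0.81 for STZ and 0.39 to 1.14 for control co-cultures against cells alone. The median of all genes itself moved between -0.45 and 0.32 over these settings. Of the other values for single genes, 3024 kept direction and side of the threshold, 133 fell below it, 73 passed it and 137 moved. Same-numbered libraries of the STZ group correlated at -0.20 to 0.47 with control and -0.42 to 0.33 with cells alone. For that group too the data do not show that the numbers pair. Depth limits Rpl39l, Rpl3l and Rpl10l, near the level of a few counts.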
